A study of Mus musculus with 6 samples.

Results

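Adhesion molecules that endothelium shows to passing leukocytes were followed in LSECs, the liver sinusoidal endothelial cells, whose fenestrated layer lines the blood spaces of the liver. The 9 members were chosen by symbol: Selp, Sele, Selplg, Icam1, Icam2, Vcam1, Pecam1, Madcam1 and Esam. Each matched a single row among the 34745 genes of the deposited table. The libraries came from 2 genotypes, 3 libraries each. The mice labelled Tgfbr2 ECKO (ECKO below) carry an endothelial knockout of Tgfbr2, the type II receptor for TGF-beta, and their Tgfbr2f/f littermates (f/f below) carry the floxed gene. Mice of either genotype were injected intraperitoneally with CCl4 (carbon tetrachloride, which injures hepatocytes and produces fibrosis) 2 times per week for 6 weeks, so no library shows the state without CCl4. The sources used here do not give the Cre driver, the age of the mice, the way LSECs were isolated or whether each library is a separate mouse. The p-values therefore measure the spread between these samples, which may be technical.

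Leukocytes leave the blood in steps. Selectins on endothelium (P-selectin, Selp; E-selectin, Sele) catch rolling cells by sugars on ligands such as PSGL-1 (Selplg), which leukocytes themselves carry. Immunoglobulin family members then bind leukocyte integrins for firm arrest: ICAM-1 and ICAM-2 bind beta 2 integrins, VCAM-1 binds the alpha 4 beta 1 integrin, and MAdCAM-1 binds the alpha 4 beta 7 integrin, chiefly in gut venules. PECAM-1 (Pecam1) and ESAM (Esam) sit at the contacts between endothelial cells, where leukocytes cross. Sele, Icam1 and Vcam1 are classical genes induced by inflammatory cytokines through NF-kB, whereas Icam2, Pecam1 and Esam are made constitutively. In liver sinusoids, recruitment is known to lean less on selectins than in venules elsewhere.

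Total counts were 17171850 to 18671217 in ECKO libraries and 17632271 to 25062755 in f/f libraries. All 12 LSEC markers listed were tested, and their summed level was 26406 to 31626 CPM (counts scaled to effective library size by TMM) in ECKO and 24508 to 28786 CPM in f/f. Libraries labelled ECKO did not have less Tgfbr2 RNA. It was at 498, 487 and 511 CPM, against 387, 442 and 452 CPM in f/f. Its log2 fold change was 0.22 (SE 0.10; edgeR adjusted p = 0.228). The labels do not say which part of the gene is deleted, so gene counts cannot check the deletion, and every direction given here goes by the label ECKO. Transcripts of the mitochondrial genome took 19.7% to 32.4% of counts in ECKO and 11.5% to 23.5% in f/f.

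Selp and Sele lie near each other on chromosome 1 of mm10/GRCm38, plus strand. Sele runs from 164048234 to 164057677 and Selp from 164115264 to 164150026. The bases just upstream of Selp, Sele and Icam1 are shown because these 3 members showed different patterns in CPM over the libraries. Selp was higher in every ECKO library, Sele was high in f/f replicates 1 and 3 alone, and the call for Icam1 turned on f/f replicate 1. Each sequence is the 250 bases before the gene start in RefSeq (GRCm38.p6, plus strand). Capitals mark TGANTCA, the AP-1 motif, in Selp and Sele, and CCGGAA, an ETS motif, or its reverse complement in Icam1.
Selp (chr1:164115014-164115263): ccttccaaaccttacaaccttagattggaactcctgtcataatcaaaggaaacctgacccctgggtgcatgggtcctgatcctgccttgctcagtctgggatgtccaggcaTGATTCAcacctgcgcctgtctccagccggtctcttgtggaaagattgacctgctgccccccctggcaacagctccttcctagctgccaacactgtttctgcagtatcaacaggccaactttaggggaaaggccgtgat
Sele (chr1:164047984-164048233): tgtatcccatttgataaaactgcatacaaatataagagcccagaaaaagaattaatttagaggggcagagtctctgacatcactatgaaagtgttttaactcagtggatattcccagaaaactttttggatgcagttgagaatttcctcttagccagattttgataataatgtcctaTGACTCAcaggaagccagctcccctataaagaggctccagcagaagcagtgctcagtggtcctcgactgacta
Icam1 (chr9:21015690-21015939): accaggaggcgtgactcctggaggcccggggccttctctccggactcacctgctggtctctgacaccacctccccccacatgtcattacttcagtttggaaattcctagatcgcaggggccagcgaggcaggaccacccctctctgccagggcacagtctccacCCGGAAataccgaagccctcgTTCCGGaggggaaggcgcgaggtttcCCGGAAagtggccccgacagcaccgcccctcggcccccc

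Of the 9 members, 4 had a promoter in the RefSeq table, the other being Madcam1. Both strands of the 250 upstream bases were searched, and no match overlapped one of another motif. TGANTCA began at position -139 in Selp and -73 in Sele, counted back from the gene start, and 6.75% of all 32851 promoters hold it. CCGGAA lay at 3 places in Icam1, against a share of 12.03% of all promoters with at least 1. The NF-kB consensus, searched as GGGRNNYYCC (R is A or G, Y is C or T, N is any base), matched in Madcam1, and in 7.25% of all promoters. Looser forms of it were not searched. CAGAC, the SMAD motif, matched in Selp and Madcam1, and in 42.2% of all promoters. AGATAA, the GATA motif, matched in none of the 4 and in 9.99% of all promoters. A match is a run of letters and not a measured binding site.

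Levels are compared between genes per length, in FPKM (fragments scaled to gene length and library size) as deposited. Esam and Pecam1, the junction molecules, had the highest means among members, at 207 ± 35.2 and 167 ± 29.6 FPKM in ECKO (SD, n = 3 here and throughout) and 165 ± 11.04 and 138 ± 20.03 FPKM in f/f. Icam1 followed at 117 ± 38.1 FPKM in ECKO and 104 ± 55.4 FPKM in f/f, and its range met that of Pecam1 in both groups. In f/f replicate 1 Icam1, at 168 FPKM, stood above Esam at 152 and Pecam1 at 115 FPKM. Icam2 was at 57.2 ± 14.1 and 51.8 ± 3.404 FPKM in ECKO and f/f. Vcam1 was at 22.0 ± 4.94 FPKM in ECKO and 30.0 ± 11.2 FPKM in f/f. The order of the selectins differed between the groups: Selp at 16.3 ± 4.03 FPKM stood above Sele at 5.89 ± 1.19 FPKM in ECKO, with no overlap, while in f/f Selp was at 9.54 ± 2.81 and Sele at 28.6 ± 18.7 FPKM, with overlapping ranges. Selplg, the leukocyte ligand, was at 0.215 ± 0.0766 FPKM in ECKO and 0.434 ± 0.184 FPKM in f/f. Madcam1 (chromosome 10, 79664574 to 79668536, plus strand) came last, with 0, 3 and 1 counts in ECKO and 0, 3 and 0 counts in f/f. A count of 0 in a library allows up to 3 counts, so it was at the limit of detection in both groups and was left out of the test.

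**Figure D1:**
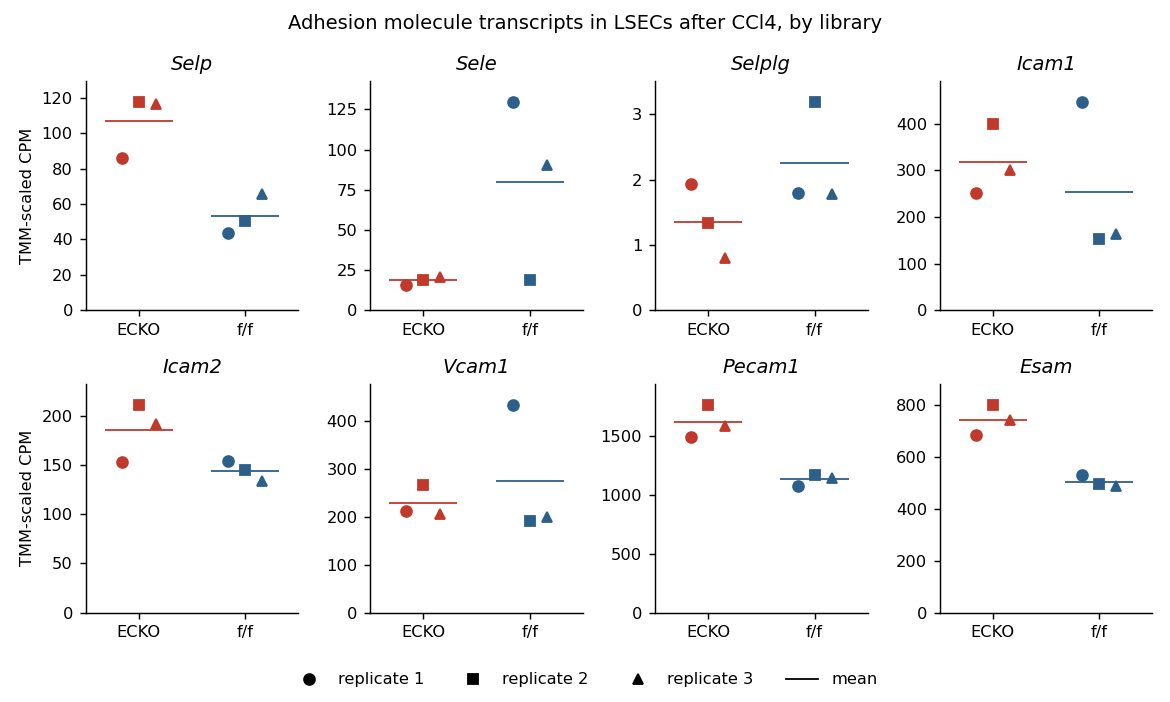
TMM-scaled CPM of the 8 tested members in each library, ECKO left and f/f right of each panel, with replicates as symbols and the mean of 3 libraries as a line. Selp, Pecam1 and Esam do not overlap between the groups, and f/f replicate 1 stands high in Sele, Icam1 and Vcam1.

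Among the 8 members tested with edgeR's quasi-likelihood test, Selp, Esam and Pecam1 rose in ECKO, none fell and 5 did not pass an adjusted p of 0.05. Over all 13692 genes tested, 1.24% were called higher and 2.79% lower in ECKO, and 23.5% had an edgeR unadjusted p under 0.05. In TMM-scaled CPM the same 3 members were the ones whose groups did not overlap, and all were higher in ECKO. Over all genes 30.9% did not overlap in CPM, 15.7% being higher and 15.2% lower in ECKO. In FPKM, which carries no TMM scaling, ECKO replicate 1 lay within the f/f range for each of the 3. Sele and Selplg overlapped in CPM but in FPKM were lower in ECKO without overlap. The members' median log2 fold change was 0.34, against 0.01 over all genes. It was 0.19 without ECKO replicate 2, and 0.21 and 0.20 without f/f replicates 2 and 3. None of the 3 calls outlived every omission of a library, and without any 1 of the ECKO replicates no member was called.

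Selp, which encodes P-selectin, a rolling receptor stored in Weibel-Palade bodies of endothelium and in platelet granules, had the largest rise among members. It stood at 85.9, 118 and 117 CPM in ECKO libraries, against 43.4, 50.2 and 65.4 CPM in f/f libraries. Every ECKO library lay above every f/f library in CPM. In FPKM ECKO replicate 1, at 11.7, lay below f/f replicate 3, at 12.4. The log2 fold change was 1.01 (SE 0.18; edgeR adjusted p = 0.0314), a 2.02-fold difference. Its adjusted p stayed under 0.05 without f/f replicates 1 and 3 (0.0346 and 0.0484) but not without f/f replicate 2 (0.0888) or ECKO replicates 1, 2 and 3 (0.0609, 0.0949 and 0.0975). In bulk RNA such as this, more cells of a type and more RNA per cell cannot be told apart. The antisense genes Gm16587 and Gm16548 overlap Selp in the annotation, and since the counting is not stated to use strand their reads cannot be separated with certainty. They held at most 3 and 8 counts in any library, against 1021 to 2035 for Selp.

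Platelets also carry P-selectin, and 9 platelet markers were read beside it. Their summed level was 11.6 to 13.6 CPM in ECKO and 14.4 to 19.0 CPM in f/f. Its part in the values of Selp was not tested. Only 3 of the 9 passed the filter on low counts. None was called by edgeR (0 at an unadjusted p under 0.05), DESeq2 or limma-voom. Gp1ba, part of the platelet receptor for von Willebrand factor, had the smallest p of them, at 1.16 ± 0.561 CPM in ECKO and 2.39 ± 0.802 CPM in f/f (edgeR adjusted p = 0.232).

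Esam (chromosome 9, 37528078 to 37538319, plus strand), the junction molecule of endothelium and platelets, was at 684, 802 and 742 CPM in ECKO, against 529, 495 and 489 CPM in f/f. In CPM the 2 ranges were narrow and did not meet, the highest library being 1.17 times the lowest in ECKO and 1.08 times in f/f. In FPKM ECKO replicate 1, at 171.2, lay just under f/f replicate 2, at 171.6. The log2 fold change was 0.56 (SE 0.10; edgeR adjusted p = 0.0314). The adjusted p was 0.0258 without f/f replicate 1 and 0.0644 to 0.143 without each other library. Pecam1 (chromosome 11, 106654217 to 106750628, minus strand) stood at 1491, 1768 and 1587 CPM in ECKO, against 1080, 1171 and 1148 CPM in f/f. Its log2 fold change was 0.51 (SE 0.11; edgeR adjusted p = 0.0456), and it missed the threshold without any 1 of the 6 libraries (0.0554 to 0.164). The fold difference was 1.47 for Esam and 1.43 for Pecam1. Under total count scaling, on which the median of all genes was -0.22, none of Selp, Esam and Pecam1 was called.

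**Figure D2:**
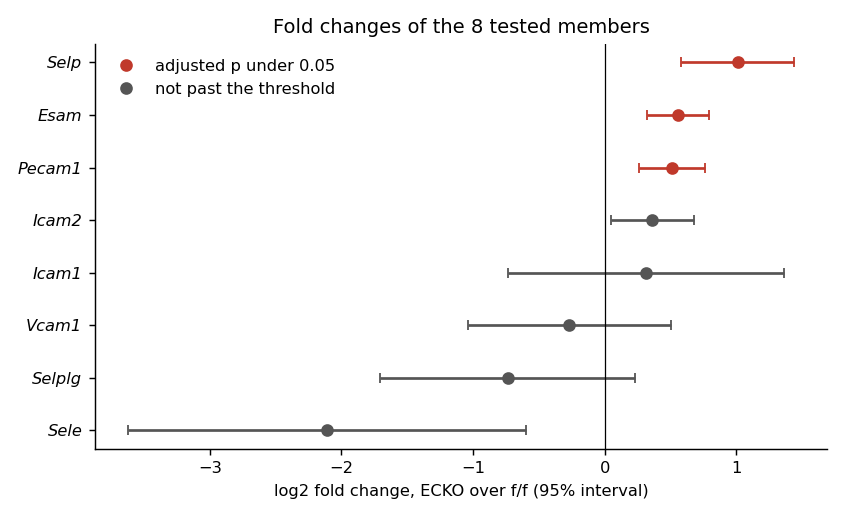
Log2 fold change, ECKO over f/f, of each tested member with its unadjusted 95% interval from the edgeR fit. Selp, Esam and Pecam1 (red) passed the adjusted threshold, and the intervals of Sele and Icam1 are the widest.

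Icam2 (chromosome 11, 106377656 to 106388075, minus strand), a constitutive ligand of beta 2 integrins, was at 153, 211 and 191 CPM in ECKO and 154, 145 and 133 CPM in f/f. ECKO replicate 1 lay within the f/f range, and the log2 fold change of 0.36 (SE 0.14; 95% interval 0.05 to 0.68) had an edgeR adjusted p of 0.162. Selplg (chromosome 5, 113818536 to 113832644, minus strand) had only 14 to 29 counts a library in ECKO and 43 to 65 in f/f. Its level was 1.93, 1.34 and 0.803 CPM in ECKO, against 1.80, 3.19 and 1.78 CPM in f/f, with a log2 fold change of -0.74 (95% interval -1.70 to 0.23; edgeR adjusted p = 0.323). Its groups overlapped.

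The cytokine-inducible members varied more among f/f libraries than between the groups. Sele, E-selectin, was at 15.8, 18.9 and 20.7 CPM in ECKO, against 130, 18.7 and 90.3 CPM in f/f. The ECKO libraries lay close together, f/f replicate 2 lay among them, and f/f replicates 1 and 3 were several times higher. The log2 fold change of -2.11 (SE 0.63; 95% interval -3.62 to -0.59) was the furthest from 0 among members but had an edgeR adjusted p of 0.115. Without f/f replicate 2, the library that lay among the ECKO values, it was -2.58 (adjusted p = 0.00459). Without f/f replicate 1 it was -1.55 (0.217), and without each other library it missed as well (0.224 to 0.264). With all libraries DESeq2 called it lower (adjusted p = 0.0445) and limma-voom did not (0.221). The highest f/f library was 6.93 times the lowest for Sele, against 1.31 times in ECKO.

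Icam1 (chromosome 9, 21015960 to 21028797, plus strand) stood at 251, 400 and 301 CPM in ECKO, against 447, 154 and 163 CPM in f/f. The ECKO libraries fell between f/f replicate 1 and the other f/f libraries, and the log2 fold change was 0.32 (SE 0.44; 95% interval -0.73 to 1.37; edgeR adjusted p = 0.694). Without f/f replicate 1 it was 1.01 and past the threshold (adjusted p = 0.0291). Leaving out f/f replicate 2 or 3 gave 0.05 or 0.08, and leaving out ECKO replicate 2 gave 0.12, none of them called. Vcam1 (chromosome 3, 116109949 to 116129688, minus strand) was at 213, 266 and 207 CPM in ECKO and 434, 192 and 200 CPM in f/f, with a log2 fold change of -0.27 (95% interval -1.04 to 0.50; edgeR adjusted p = 0.649) that turned to 0.23 without f/f replicate 1 (adjusted p = 0.353). A single f/f library set the sign for Vcam1 and the call for Icam1. The annotation places antisense genes over Icam1 and Vcam1, and the 1 over Vcam1, Gm43109, had at most 5 counts in a library.

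**Figure D3:**
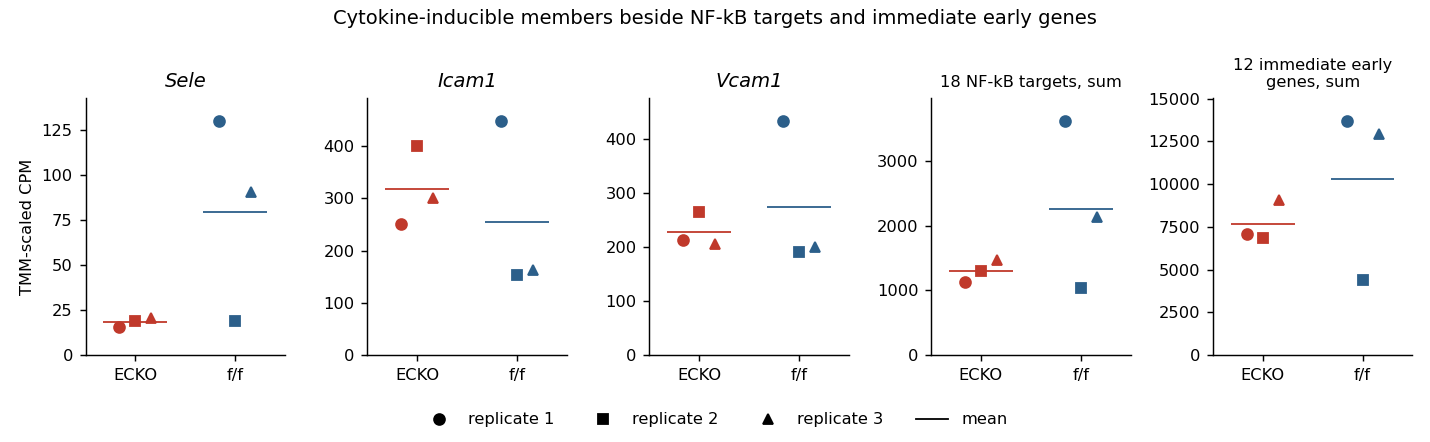
TMM-scaled CPM of Sele, Icam1 and Vcam1 in each library beside the summed CPM of 18 NF-kB targets and of 12 immediate early genes, ECKO left and f/f right of each panel, with lines at the means. f/f replicate 1 is the highest library in all 5 panels, while f/f replicate 3 is high in Sele and the immediate early sum but not in Icam1 or Vcam1.

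NF-kB targets were read from a list of 18 genes. Their summed level was 1130, 1294 and 1475 CPM in ECKO, against 3616, 1041 and 2129 CPM in f/f. Over the f/f libraries this is the order of Sele, and also of Icam1, Vcam1 and the total counts. With 3 libraries few orders are possible, and the share of all genes with this order was not worked out. Of 17 tested, edgeR called none, with 7 at an unadjusted p under 0.05, a level that 23.5% of all genes tested reached. DESeq2 called 4 lower and limma-voom none, and the median log2 fold change was -0.96. Leaving out f/f replicate 1 gave a median of -0.55 and leaving out f/f replicate 2 gave -1.35, while the other omissions gave -1.09 to -0.86. Cxcl2, a neutrophil chemokine, was at 1.73, 2.85 and 4.82 CPM in ECKO and 33.1, 7.57 and 17.1 CPM in f/f, without overlap (edgeR adjusted p = 0.0678). Without f/f replicate 2, which was low in Sele too, edgeR called 4 targets lower, and without each other library it called 0.

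Immediate early genes, which respond within minutes to handling and many other stimuli, summed to 7097, 6875 and 9061 CPM in ECKO, against 13668, 4393 and 12912 CPM in f/f. Their order over f/f libraries was also that of Sele, Icam1, Vcam1 and the total counts, an order whose share over all genes was not worked out. Of 12 tested, Nr4a1, an orphan nuclear receptor, fell to 12.2, 17.4 and 28.4 CPM in ECKO, against 63.4, 50.9 and 60.5 CPM in f/f (log2 fold change -1.59, SE 0.29, edgeR adjusted p = 0.0337), and 11 did not pass. Nr4a1 passed without ECKO replicate 3 or f/f replicate 1 and missed without each other library. All 12 had a negative log2 fold change, with a median of -0.38. An edgeR unadjusted p under 0.05 was reached by 3 of them, against 23.5% of all genes tested. DESeq2 called 3 lower and limma-voom 1. Without f/f replicate 2 edgeR called 5 lower, with a median of -0.73. Without each other library it called 0 or 1, with medians of -0.52 to -0.17. The part of the NF-kB and immediate early levels in the values of Sele, Icam1 and Vcam1 was not tested.

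Because Selp and Sele lie close together and had opposite signs, their ratio was taken within each library, a quantity that no scaling between libraries can move. It was chosen after the values were seen. ECKO libraries held 5.44, 6.22 and 5.64 Selp counts per Sele count, against 0.335, 2.68 and 0.725 in f/f libraries. The ECKO ratios were nearly equal and all lay above the f/f ratios. The mean log2 ratio was 2.53 ± 0.0995 in ECKO and -0.21 ± 1.52 in f/f, a difference of 2.73 (exact permutation p = 0.1, two-sided, the smallest that 3 against 3 allows). Without f/f replicate 1 the difference was 2.05 and without f/f replicate 2 it was 3.55.

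Members were also set against the summed counts of Pecam1, Cdh5 and Kdr, general endothelial genes, in the same library (Pecam1 itself against Cdh5 and Kdr). Selp made up 1.2997%, 2.05% and 1.70% of that sum in ECKO, against 0.702%, 0.946% and 1.19% in f/f. Esam came to 10.4%, 14.0% and 10.8% in ECKO, against 8.57%, 9.33% and 8.88% in f/f. Pecam1 equalled 29.1%, 44.6% and 30.0% of Cdh5 plus Kdr in ECKO, against 21.2%, 28.3% and 26.4% in f/f. The groups did not overlap for these 3 members, nor for Sele, which was at 0.239%, 0.330% and 0.301% in ECKO and 2.10%, 0.353% and 1.64% in f/f. Each of the 4 had an exact two-sided permutation p of 0.1, the smallest possible, which is 0.2 when adjusted over the 8 members. Selplg, Icam1, Icam2 and Vcam1 overlapped (exact permutation p = 0.2 to 0.6). The share of all genes without overlap on this ratio was not worked out. In CPM it was 30.9%, and there Sele overlapped. Cdh5, which encodes VE-cadherin, was itself at 1605, 1406 and 1680 CPM in ECKO and 1457, 1429 and 1503 CPM in f/f (edgeR adjusted p = 0.622). The sum also holds Kdr, whose values are not given here, and Pecam1, which was called higher. Cdh5 alone therefore does not show how even the sum was.

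**Figure D4:**
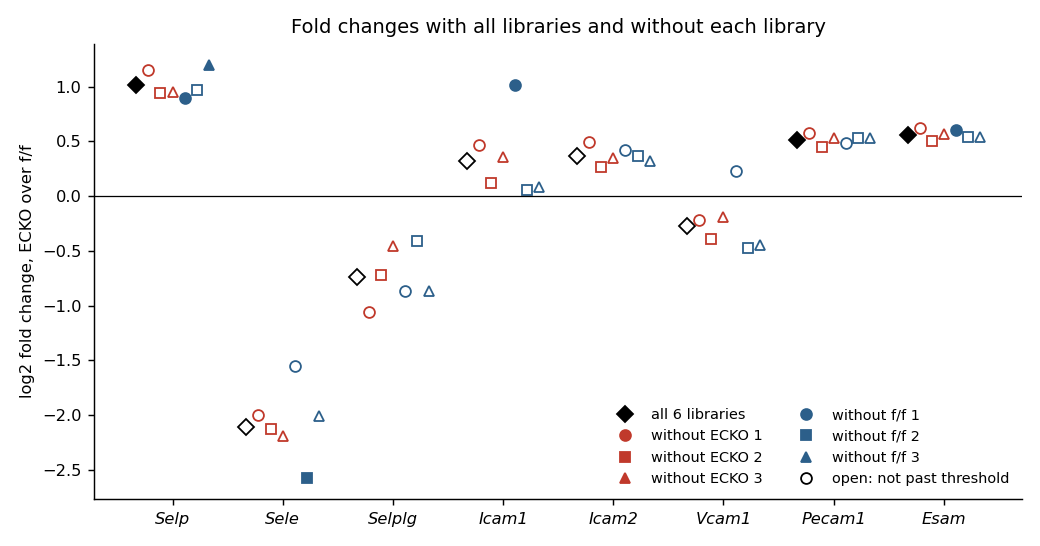
Log2 fold change, ECKO over f/f, of each tested member with all 6 libraries (black diamonds), without each ECKO library (red) and without each f/f library (blue). Filled symbols passed the adjusted threshold and open ones did not. Selp, Esam and Pecam1 keep their sign throughout, Vcam1 crosses 0 without f/f replicate 1, and Icam1 and Sele pass without 1 f/f library each.

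Other genes of leukocyte passage were read from lists. For the calls in these lists and the cell marker lists below, the shares over all genes tested were 1.24% higher and 2.79% lower. Of 16 junction and transmigration partners, Jam2 rose and 15 did not pass, with a median log2 fold change of -0.02. Jam2, a junctional adhesion molecule related to ESAM that binds the alpha 4 beta 1 integrin, was at 1266, 1451 and 1366 CPM in ECKO, against 725, 911 and 922 CPM in f/f. Its log2 fold change was 0.68 (SE 0.13; edgeR adjusted p = 0.0336), and it passed without f/f replicate 1 alone.

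Of 13 tested among 14 other endothelial receptors and sialomucins, Cd44 and Cd34 fell and 11 did not pass. The median was -0.15, against -0.05 and -0.23 without f/f replicates 1 and 2 and -0.09 without ECKO replicate 1. Cd44, the hyaluronan receptor used in sinusoidal neutrophil adhesion and carried by many leukocytes and stromal cells, was at 2.53, 1.63 and 2.12 CPM in ECKO, against 6.11, 11.8 and 7.58 CPM in f/f (log2 fold change -2.02, SE 0.31, edgeR adjusted p = 0.0212). Cd34, a sialomucin of continuous endothelium and fibroblasts, was at 31.4, 50.4 and 34.1 CPM in ECKO, against 68.0, 100 and 92.9 CPM in f/f (log2 fold change -1.17, SE 0.22, edgeR adjusted p = 0.0345). Cd44 passed without f/f replicates 1 and 2 only, and Cd34 without ECKO replicate 2 and f/f replicate 1 only. Glycam1 had no count in any library.

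Weibel-Palade bodies, the endothelial granules that hold P-selectin, were read from 12 genes. Of 11 tested, Rab27a rose, Cd63 fell and 9 did not pass. The list's median log2 fold change of 0.21 had no stable sign, being -0.22 when ECKO replicate 2 was left out, -0.0037 when f/f replicate 1 was, 0.13 when ECKO replicate 1 was, and -0.05 under total count scaling. Cd63, a tetraspanin of these granules and of lysosomes that helps to hold P-selectin at the surface, fell to 16.4, 18.7 and 15.4 CPM in ECKO, against 41.3, 48.8 and 51.5 CPM in f/f. Its log2 fold change was -1.49 (SE 0.13; edgeR adjusted p = 0.00853), and it passed without each library in turn. Cd63 is not restricted to endothelium. Rab27a, a GTPase of granule release, was at 145, 161 and 121 CPM in ECKO and 95.4, 97.3 and 96.0 CPM in f/f (log2 fold change 0.56, SE 0.12, edgeR adjusted p = 0.0467) and missed without any 1 library (0.0580 to 0.157).

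Selectin ligands need sialyl, fucosyl and sulfo groups. Of 11 tested genes that make them, among 13 listed, St3gal6, a sialyltransferase, and B3gnt3, which extends core 1 O-glycans, rose and 9 did not pass (median 0.00). St3gal6 was at 52.3 ± 2.84 CPM in ECKO and 39.1 ± 1.16 CPM in f/f, and B3gnt3 at 215 ± 4.61 CPM in ECKO and 160 ± 10.2 CPM in f/f. Both had a log2 fold change of 0.42 and an edgeR adjusted p of 0.0498, just under the threshold. St3gal6 passed without f/f replicate 1 only, and B3gnt3 missed without any 1 library (0.0614 to 0.138).

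The leukocyte side was represented by 13 counter-receptors, 11 of them tested. None passed, with 5 at an unadjusted p under 0.05 in edgeR, which 23.5% of all genes tested reached. DESeq2 called 3 lower and limma-voom called 0, and the median log2 fold change was -1.02. Itga4, the alpha 4 integrin chain that binds VCAM-1, was at 0.666, 0.465 and 0.401 CPM in ECKO, against 1.21, 2.80 and 1.78 CPM in f/f (edgeR adjusted p = 0.0573). Itgb1, its beta 1 partner, which most cells make, was at 733, 696 and 787 CPM in ECKO and 766, 743 and 747 CPM in f/f.

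Markers of other cells that could carry these molecules were measured in the same libraries. Of 10 leukocyte markers, Lcp1, an actin-bundling protein, fell to 39.6 ± 5.10 CPM in ECKO, against 71.3 ± 5.72 CPM in f/f (log2 fold change -0.85, SE 0.12, edgeR adjusted p = 0.0163), and 9 did not pass. The list's sum was 182 to 197 CPM in ECKO and 206 to 241 CPM in f/f. Among B and plasma cell markers Jchain and Cd79a fell (edgeR adjusted p = 0.0314 and 0.0358), and the list's sum was 2.73 to 3.93 CPM in ECKO and 8.41 to 22.4 CPM in f/f. Of 7 monocyte and neutrophil markers Mpo fell, with sums of 36.9 to 45.4 CPM in ECKO and 56.9 to 85.6 CPM in f/f. Lcp1 missed without any library but f/f replicates 1 and 2, and Jchain, Cd79a and Mpo passed without f/f replicate 1 only. Ly6g was at 0 in every library.

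Stellate cells, which can make Vcam1 and Icam1, had 7 of 12 markers lower and none higher. Over all genes tested 2.79% were called lower. The 7 were led by Tcf21, Cygb, Dcn and Colec11. Tcf21, a mesenchymal transcription factor, was at 10.5, 6.10 and 9.63 CPM in ECKO, against 37.2, 35.5 and 34.9 CPM in f/f (log2 fold change -2.04, SE 0.20, edgeR adjusted p = 0.00853), and it passed without each library in turn. Their sum was 618 to 952 CPM in ECKO and 1633 to 2612 CPM in f/f. The count of 7 was 1 without ECKO replicate 1, 4 without ECKO replicate 2 or 3, and 8, 4 and 2 without f/f replicates 1, 2 and 3. Of 6 mesothelial markers, which mark the liver's surface layer, Wt1 fell and 5 did not pass, with sums of 30.6 to 74.5 CPM in ECKO and 51.4 to 105 CPM in f/f, and Wt1 missed without any 1 library. Of 14 markers of vein and artery endothelium, where P-selectin and E-selectin are commonly found, Ltbp4 rose, Cd34 fell and 12 did not pass. The median log2 fold change was 0.31, against 0.16 when ECKO replicate 2 was left out, 0.18 when f/f replicate 1 was, 0.50 when f/f replicate 3 was, and 0.06 under total count scaling. Their sum was 4776 to 6262 CPM in ECKO and 3432 to 4605 CPM in f/f, and Ltbp4 passed without f/f replicate 1 only. Over the 12 LSEC markers the median was 0.17 (0.10 without ECKO replicate 3 or f/f replicate 2, and 0.28 without ECKO replicate 2 or f/f replicate 1). This median had no stable sign, being -0.06 under total count scaling and -0.07 on log2(FPKM + 1) and log2(FPKM + 0.1). None of the 12 passed in edgeR, while DESeq2 called 1 and limma-voom 0. An edgeR unadjusted p under 0.05 was reached by 3 of the 12 and by 23.5% of all genes tested. Oit3 had the smallest p, at 2734 ± 204 CPM in ECKO and 2089 ± 22.2 CPM in f/f (edgeR adjusted p = 0.0850).

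No marker of Kupffer cells, T and NK cells or hepatocytes passed in edgeR, among 7, 2 and 8 tested. An unadjusted p under 0.05 was reached by 2, 0 and 1 of them, against 23.5% of all genes tested. DESeq2 called 1 Kupffer and 1 hepatocyte marker higher, and limma-voom none of the 3 lists. Clec4f, the Kupffer cell lectin, was at 12.004 ± 4.26 CPM in ECKO and 5.01 ± 1.25 CPM in f/f (edgeR adjusted p = 0.0711). Ccl5 was at 0.792 ± 0.126 CPM in ECKO and 1.15 ± 0.208 CPM in f/f (edgeR adjusted p = 0.380). Apoa1 was at 76.0 ± 32.7 CPM in ECKO and 36.1 ± 12.3 CPM in f/f (edgeR adjusted p = 0.162). The part of these cell type markers in the values of the members was not tested.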

How the data were processed

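mRNA of LSECs was sequenced in 6 libraries. Per the submitters' processing notes, builds GRCm38.p4 and mm10 and the tools HISAT2 2.0.4 and StringTie 1.3.0 were used. The sources used here do not give the counter, the strand setting or the annotation release. Gene counts, not normalized, stand in the deposited table. Per the file headers its other columns are FPKM, computed by the authors. They implied the same gene length in every library to within a relative difference of 4.53e-06, over 7566 genes with over 200 counts in each library.

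Counts were tested in R 4.3.3 with edgeR 4.0.16 (filterByExpr with minimum count 10 and minimum total 15, TMM, quasi-likelihood F-test, two-sided, robust dispersion, a model of genotype alone, Benjamini-Hochberg over 13692 genes, threshold 0.05). The SE is the absolute log2 fold change over the square root of F, intervals are unadjusted, and counting floors cover counting error only. The test was also tested on simulated data. The alternatives used DESeq2 1.42.0, limma 3.58.1 (voom, or trend on log2(FPKM + 1) and log2(FPKM + 0.1) for genes averaging at least 0.1 FPKM), other scalings, filters and a replicate block, and left out each library.

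Members and 18 gene lists were chosen with earlier results of these data known. Named genes were all members, Tgfbr2, up to 4 called genes of each list (smallest p first) or else the gene with the smallest p, and the 3 genes most like Selp, Vcam1 and Pecam1. Tnfaip3, Itgb1, Cdh5, Ly6g and Glycam1 fall outside that rule: their values were known when they were chosen. Nectin2 and Tf stand in the table as Pvrl2 and Trf. No columns were left out (0). Some genes of the lists are not reported here. Promoters are from RefSeq (GRCm38.p6).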

Additional observations from a re-analysis of the deposited data

How the results depend on the processing

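Members called numbered 3 in the test as reported and 0 under total count scaling, on log2(FPKM + 1) and on log2(FPKM + 0.1), 1 with the replicate block, 2 with upper quartile scaling, limma-voom or dispersion without the robust option, 4 with DESeq2, and 0 to 3 when a library was left out. Genes called numbered 552 of 13692, against 1272 under total count scaling (95% of them lower, against 69.2%) and 315 with limma-voom. DESeq2 called 1491 genes, 1038 of them lower. It gave a fold change for 20082 genes, but its own filter can leave some of those without an adjusted p. Calls ran from 35 of 14064 without ECKO replicate 1 to 1012 of 14016 without f/f replicate 1. On log2(FPKM + 1) 470 and on log2(FPKM + 0.1) 612 of 14720 genes were called, 91.9% and 92.3% of them lower. Total count scaling moved the median of all genes to -0.22, log2(FPKM + 1) to -0.14 and log2(FPKM + 0.1) to -0.22. The log2 fold changes under total count scaling were 0.77 for Selp (adjusted p = 0.0883), 0.33 for Esam (0.235) and 0.28 for Pecam1 (0.378). Relative to the median shift they were 0.99, 0.55 and 0.50. Of 136 results for a member under an alternative, 103 kept their sign and side of the threshold, 29 lost the call, 3 gained one and 1 turned round (Vcam1, -0.48 to 0.23 when a library was left out, the highest without f/f replicate 1). Only the 3 called members had a call to lose. Pecam1 lost it under 13 alternatives and kept it under 4, Esam lost it under 9 and kept it under 8, and Selp lost it under 7 and kept it under 10. Pecam1 also missed with upper quartile scaling (adjusted p = 0.0553), limma-voom (0.0517) and without robust dispersion (0.0563). The members' median was 0.15 to 0.48 under the alternatives. The replicate numbers were not taken as pairs: deviations of same-numbered libraries correlated at 0.09, 0.15 and -0.05, and ECKO replicate 3 correlated best with f/f replicate 1 (0.09). With the replicate number as a block the adjusted p was 0.0189 for Selp, 0.0604 for Esam and 0.0626 for Pecam1. The block gave 416 calls, 321 of them shared with the 552. Depth limits Madcam1 and Selplg.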

Other observations

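The genes whose centred log2 CPM profile over the 6 libraries lay closest to each of 3 members were found among genes averaging at least 1 CPM. Closest to Selp were Mterf2 (root mean square difference 0.08 on the log2 scale), Tmco6 (0.15) and Manf (0.17). Manf, a secreted protein of the endoplasmic reticulum stress response, was at 151, 242 and 217 CPM in ECKO and 89.1, 111 and 101 CPM in f/f (edgeR adjusted p = 0.0307, and under the threshold without ECKO replicate 1 or f/f replicate 1 only). Closest to Pecam1 were Ostf1, Ndufv3 and Tcn2, each at 0.04. Closest to Vcam1 were Ppp1r10 (0.11), Mob3c (0.12) and Stx11 (0.13). Because these 3 were picked by likeness, being high in f/f replicate 1 as Vcam1 was follows from the choice. In the same way, Manf being higher in ECKO follows from its likeness to Selp. Mob3c, for example, stood at 39.1, 37.8 and 35.8 CPM in ECKO and 68.3, 31.8 and 32.1 CPM in f/f.

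Tnfaip3, the NF-kB feedback inhibitor A20, was at 35.7, 37.7 and 46.7 CPM in ECKO and 354, 63.9 and 144 CPM in f/f (edgeR adjusted p = 0.0878). Its order over the f/f libraries was that of Sele, Icam1, Vcam1 and the total counts. Tnfaip3 was chosen with these values known, and the share of all genes with this order was not worked out.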
